A study of Mus musculus with 4 samples.

Results

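The integrated stress response (ISR) is the pathway by which a cell slows protein synthesis when amino acids, heme, oxygen or protein folding in the ER fail. Kinases phosphorylate the initiation factor eIF2α, most translation falls, and the mRNA of the transcription factor ATF4 is translated more. ATF4 then induces CHOP (encoded by *Ddit3*), ATF3 and a set of effectors that feed back on the response, on mTORC1 and on cell survival. The 9 genes described here are *Ddit3*, *Atf3*, *Trib3*, *Chac1*, *Nupr1*, *Ddit4*, *Sesn2*, *Adm2* and *Atf4* itself. They are 9 of the 9936 gene names in the deposited tables, and all 9 have a row in both tables. They were chosen by name with measured values in view, the FPKM ratios of GSK-J4 to DMSO in these same libraries, so their response to GSK-J4 is given as a description and not as a test.

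The cells were LF2, a female mouse embryonic stem cell (ESC) line of strain 129/J. They were grown on feeder cells, passaged without feeders and then treated for 24 hr. Of the 4 libraries of total RNA, PBS+DMSO received only the vehicles and PBS+GSK-J4 received 10 μM GSK-J4. AA+DMSO received 50 μg/ml L-ascorbic acid (AA), and AA+GSK-J4 received both compounds. GSK-J4 is a small molecule that enters cells and blocks histone demethylases of the JmjC class, and AA is a cofactor that can raise the activity of such enzymes. Each condition is 1 library of 1 cell line, so no value below has a replicate error and no p-value is given. Levels are FPKM, read fragments scaled by exon length and by library size. Because FPKM is per length, levels can be compared between genes. Changes are the log2 ratio of FPKM + 1 in the treated library to FPKM + 1 in its vehicle library, which understates changes of weakly expressed genes, and a gene is said to rise or fall when it changed at least 2-fold on that scale. A gene enters a comparison where one of its libraries reaches an FPKM of 1.

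No read counts are given, and library depth is therefore unknown. FPKM summed over genes ranged from 271205 to 360621. Of 8 ESC marker genes, 7 had a value, between 37.4 and 867 FPKM in every library, and *Zfp42* had a failed estimate. All 7 were lower with GSK-J4: their summed FPKM in DMSO was 2124 with PBS and 1892 with AA, against 1311 and 1177 in GSK-J4. Well expressed genes were lower with GSK-J4 in general. Genes with a mean FPKM of at least 100 had median log2 ratios of -0.60 without AA and -0.56 with AA. Those from 10 to 100 FPKM had -0.35 and -0.31. Of 10 fibroblast genes chosen to show feeder cells, 4 had a value, none at 0, and their summed FPKM in DMSO was 14.8 with PBS and 12.7 with AA, against 17.4 and 17.5 in GSK-J4. The part of either marker change in the results was not tested. In bulk RNA, a change in the share of a cell type and a change of RNA per cell cannot be told apart.

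GSK-J4 was followed by higher levels of all 9 genes, without and with AA. Without AA, 8 of the 9 rose at least 2-fold and none fell. In the same comparison 4.96% of 9196 genes rose and 3.5% fell. With AA, the same count of 8 of 9 rose and none fell, where 4.13% of 9139 genes rose and 3.38% fell. The split over all genes rests on the scaling: it was 456 higher and 322 lower without AA as deposited and 801 and 95 when all libraries were given the same total, and 377 and 309 against 623 and 99 with AA. The median log2 ratio of the 9 genes was 2.52 without AA and 2.08 with AA, while the median of all genes tested was -0.17 and -0.16. Since these ratios chose the genes, the background is stated for scale only. *Atf3* and *Adm2* were below an FPKM of 1 in both DMSO libraries and entered these comparisons only through their GSK-J4 values. *Atf4* was the gene that stayed under the 2-fold threshold in both comparisons. These comparisons share no library. The 9 genes together made up 0.0686% of the summed FPKM in DMSO and 0.289% in GSK-J4 without AA, and with AA 0.0731% and 0.285%.

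**Figure D1:**
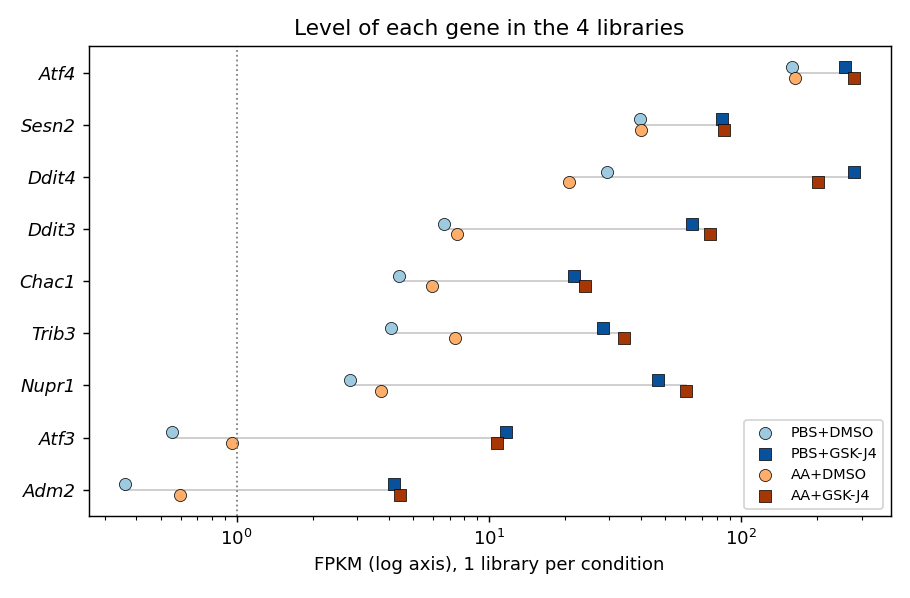
FPKM of the 9 genes (log axis) in each of the 4 libraries, 1 point per library, with circles for DMSO and squares for GSK-J4, and a dotted line at an FPKM of 1. For every gene both squares lie to the right of both circles, from *Adm2* (0.362 to 4.46 FPKM) to *Atf4* (159 to 279 FPKM).

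The promoter sequences of these genes were not searched to choose them. The genes were, however, named as known effectors of ATF4 and CHOP. The share of them holding an ATF4 element is thus not independent of that choice. ATF4 binds, together with a C/EBP partner, to the C/EBP-ATF response element (CARE), searched here as the letters TGATGNAA on both strands. The RefSeq promoter windows used hold 250 bases before and 50 bases after a transcript start on GRCm38.p6, and all 9 genes have a window. A CARE match was found in 4 of the 9 windows (44.4%), those of *Nupr1*, *Atf3*, *Chac1* and *Trib3*. Among all 32851 windows, 3.97% hold a match. Among the genes tested in both GSK-J4 comparisons it is 2.4% of the 7246 genes with a window, which are 80.8% of the 8972 genes tested. The stretches that carry the matches are printed because they hold the element that these 4 of the 9 genes share. They read 5′ to 3′ on the strand of the gene, with the CARE in capitals. In all 4 the element lies on the opposite strand of the gene, so it reads TTNCATCA.
*Nupr1*, chr7:126625562-126625591, minus strand: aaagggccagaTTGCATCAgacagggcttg
*Atf3*, chr1:191183342-191183491, minus strand: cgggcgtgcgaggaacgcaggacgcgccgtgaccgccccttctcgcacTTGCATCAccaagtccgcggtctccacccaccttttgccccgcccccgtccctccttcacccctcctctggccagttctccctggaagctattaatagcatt
*Chac1*, chr2:119350992-119351141, plus strand: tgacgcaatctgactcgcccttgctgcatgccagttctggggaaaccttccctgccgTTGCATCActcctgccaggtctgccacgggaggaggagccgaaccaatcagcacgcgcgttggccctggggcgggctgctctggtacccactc
*Trib3*, chr2:152344031-152344054, minus strand: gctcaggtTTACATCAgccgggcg
*Nupr1*, *Atf3* and *Chac1* share the same 8 letters, and *Trib3* differs from them at the base searched as N. Counted from the RefSeq start, the element begins at -110 in both *Nupr1* and *Atf3* and at -193 in *Chac1*. In *Trib3* it begins at 15, inside the RefSeq transcript, but the GENCODE M21 gene starts at 152344032 on the minus strand, and the element (152344039 to 152344046) lies upstream of that start. The *Nupr1* site lies within exons of a protein-coding and a retained-intron GENCODE M21 transcript of that gene, so for those it is not upstream. The GENCODE M21 gene of *Atf3* runs to 191218039 on the minus strand. Its element (191183436 to 191183443) therefore lies inside that gene. A match is a description of the letters and not a bound site.

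The other elements searched were in at most 1 window each. The AP-1 element TGANTCA was in the *Ddit3* window (1 of 9, against 7.81% of all windows and 5.73% of the tested genes with one). The E-box CACGTG was in the *Nupr1* window (1 of 9, against 7.15% and 12.7%). The cAMP response element TGACGTCA (1.79% and 3.68%) and the ER stress element, CCAAT and CCACG with 9 bases between them (0.119% and 0.207%), were in none of the 9. No match overlapped another. *Ddit4*, *Sesn2*, *Adm2* and *Atf4* held none of these letters, which says only that they are absent from these 300 bases.

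**Figure D2:**
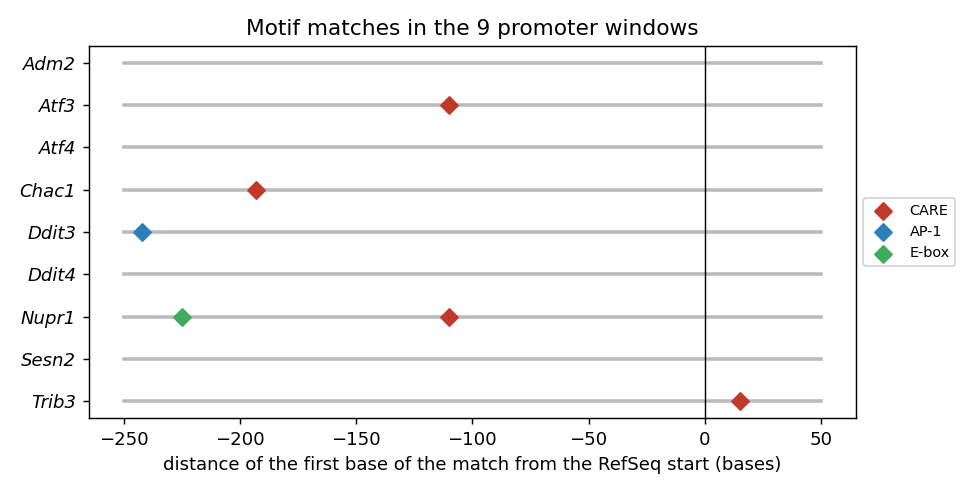
Matches to the searched elements in the 9 promoter windows, with the distance of the first base of each match from the RefSeq start on the x axis in bases and a grey line for each window. CARE matches (red) lie in 4 windows, at -110 in *Nupr1* and *Atf3*, at -193 in *Chac1* and at 15 in *Trib3*.

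*Atf4* encodes the transcription factor at the head of the set. It lies on chromosome 15 from 80255216 to 80257545 in the coordinates of the tables (mm10). In DMSO it was at 159 FPKM with PBS and 164 with AA, and in GSK-J4 at 257 with PBS and 279 with AA. Both GSK-J4 libraries were above both DMSO libraries, and *Atf4* was the highest of the 9 genes in 3 of the 4 libraries. The ratios of FPKM were 1.61-fold without AA and 1.70-fold with AA, log2 ratios of 0.69 and 0.77. Although under the 2-fold threshold, *Atf4* ranked at percentile 90.7 and 93.3 of all genes tested. GSK-J4 ratios moved with the level of a gene: the 482 genes with a mean FPKM of at least 100 had medians of -0.60 without AA and -0.56 with AA, and among these *Atf4* ranked at percentile 98.3 and 98.1. ATF4 protein is set largely by translation, which was not measured here.

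*Ddit3* encodes CHOP, a bZIP factor that pairs with C/EBP proteins and is known for promoting cell death under lasting ER stress. In DMSO its FPKM was 6.64 with PBS and 7.45 with AA, and in GSK-J4 it was 63.7 and 75.0. The GSK-J4 libraries were close to 10 times the DMSO libraries, 9.60-fold without AA and 10.1-fold with AA. The log2 ratios were 3.08 and 3.17, rank 4 and rank 3 of all genes tested. Among the levels of all genes *Ddit3* stood at percentile 45.2 in the vehicle library and 93.2 with GSK-J4 alone. The table's locus, chromosome 10 from 127290722 to 127311788, also covers the tRNA synthetase gene *Mars*, whose end overlaps that of *Ddit3* on the opposite strand by 68 bases. Whether the library kept strand is not stated. *Mars*, which has its own rows, was at 62.2 FPKM with PBS and 66.1 with AA in DMSO and at 51.6 and 54.9 in GSK-J4, so it was lower where *Ddit3* was higher.

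*Atf3* encodes a stress-induced bZIP factor of the ATF/CREB family (chromosome 1, 191170298 to 191183339). Its level in DMSO was low, 0.553 FPKM with PBS and 0.961 with AA, and stood at 11.7 and 10.8 in GSK-J4. Both DMSO libraries were below an FPKM of 1 and both GSK-J4 libraries above 10. The FPKM ratio was 21.1-fold without AA and 11.2-fold with AA, with GSK-J4 values that were close to each other and DMSO values below 1. On the log2 scale used here the changes were 3.03 and 2.59.

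*Nupr1*, a small chromatin-binding stress protein, had the highest log2 ratio of all genes tested in both comparisons at a pseudocount of 1. It lies on chromosome 7 from 126623210 to 126625789. The DMSO libraries gave 2.81 FPKM with PBS and 3.73 with AA, and the GSK-J4 libraries gave 46.9 and 60.7. That is 16.7-fold without AA and 16.3-fold with AA, log2 ratios of 3.65 and 3.71. That place depends on the pseudocount: with 0.1 in place of 1, *Atf3* (4.17) was above *Nupr1* (4.01) without AA, and with 5, *Ddit4* was above *Nupr1* in both comparisons (3.05 against 2.73 without AA). Among the 9 genes it moved from seventh place in each DMSO library to the fifth in each GSK-J4 library.

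*Trib3* encodes a pseudokinase that binds ATF4 and CHOP and dampens their activity. In DMSO it stood at 4.10 FPKM with PBS and at 7.34 with AA, and in GSK-J4 at 28.2 and 34.3. The AA library was the higher of both pairs. The FPKM ratio was 6.90-fold without AA and 4.68-fold with AA (log2 ratios 2.52 and 2.08). The table's locus, chromosome 2 from 152337368 to 152376642, also covers *Nrsn2*, which has its own rows at 0.825 to 1.59 FPKM.

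*Chac1* encodes a glutathione-degrading enzyme and lies on chromosome 2 from 119351217 to 119354343. Its DMSO levels were 4.41 FPKM with PBS and 5.94 with AA, and its GSK-J4 levels were 21.6 and 24.1. These are 4.91-fold and 4.05-fold, log2 ratios of 2.07 and 1.85. *Adm2* encodes adrenomedullin 2, a secreted peptide, and was the lowest of the 9 genes in every library (chromosome 15, 89322932 to 89324691). It measured 0.362 FPKM with PBS and 0.595 with AA in DMSO, and 4.21 and 4.46 in GSK-J4. The log2 ratios of *Adm2* were 1.94 and 1.78, and like *Atf3* it was below an FPKM of 1 in both DMSO libraries.

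*Ddit4* and *Sesn2* encode proteins that restrain mTORC1, DDIT4 through the TSC complex and SESN2 as a leucine sensor acting on GATOR2. *Ddit4* (chromosome 10, 59949666 to 59951925) was in DMSO at 29.4 FPKM with PBS and 20.7 with AA, and in GSK-J4 at 279.8 and 201. Its gain of 250.4 FPKM without AA and 180 with AA was the largest in FPKM of the 9 genes, at 9.51-fold and 9.70-fold. In PBS+GSK-J4 its level passed that of *Atf4*. The log2 ratios were 3.21 and 3.22, rank 2 of all genes tested in each comparison. *Sesn2* (chromosome 4, 132492039 to 132510511) had DMSO levels of 39.8 FPKM with PBS and 40.0 with AA, and GSK-J4 levels of 84.1 and 85.5, which is 2.11-fold and 2.14-fold. Its log2 ratios of 1.06 and 1.08 lie just past the 2-fold threshold. With a pseudocount of 5 the value without AA was 0.99, under the threshold.

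**Figure D3:**
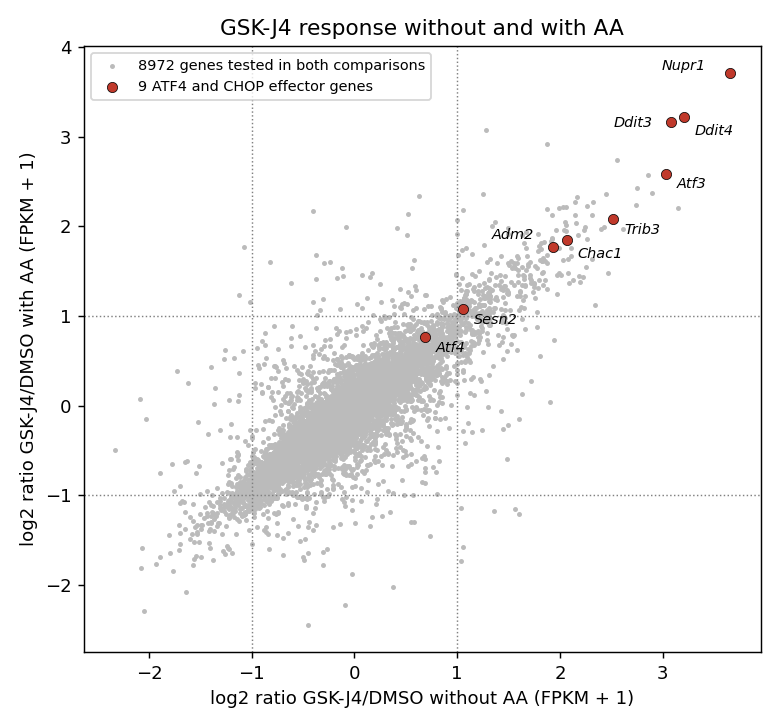
Log2 ratio of GSK-J4 to DMSO without AA (x axis) against that with AA (y axis), with grey points for the 8972 genes tested in both comparisons, red points for the 9 genes and dotted lines at 2-fold. *Nupr1*, *Ddit4*, *Ddit3* and *Atf3* lie at the upper right end of all genes, *Sesn2* is just past 2-fold and *Atf4* is under it.

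The order of the 9 levels differed between vehicle and inhibitor. In PBS+DMSO it was *Atf4*, *Sesn2*, *Ddit4*, *Ddit3*, *Chac1*, *Trib3*, *Nupr1*, *Atf3* and *Adm2*, from high to low. In AA+DMSO the order was the same apart from *Trib3* above *Chac1*. In both GSK-J4 libraries *Ddit4* stood above *Sesn2*, and *Nupr1* and *Trib3* above *Chac1*. With no replicates, it cannot be said which neighbours in these orders differ beyond their error. Each DMSO library held 3 of the 9 genes at 10 FPKM or more, and each GSK-J4 library held 8.

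AA addressed a further question, whether the cofactor alone moves these genes and whether it alters their response to the inhibitor. None of the 9 genes changed 2-fold with AA. In DMSO, 7 of the 9 could be compared, because *Atf3* and *Adm2* were below an FPKM of 1 in both libraries, and none of the 7 passed 2-fold, where 0.565% of 8843 genes rose and 0.735% fell. In GSK-J4, none of 9 passed 2-fold, where 0.512% of 9180 genes rose and 0.599% fell. These libraries come from 2 tables, and whether the authors scaled the tables to each other is not stated. They are also the libraries of the GSK-J4 comparisons, so the AA values below are given beside those and not as independent results.

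*Trib3* had the largest AA value of the set in DMSO, a log2 ratio of 0.71 (1.79-fold), at percentile 98.7 of the genes tested. In GSK-J4 its AA ratio was 0.27. *Ddit4* was lower with AA in both pairs of libraries, by 1.42-fold in DMSO and 1.40-fold in GSK-J4. Its log2 ratios were -0.49 and -0.48, at percentiles 3.06 and 3.85. The log2 ratios with AA were 0.31 and 0.36 for *Nupr1*, 0.36 and 0.15 for *Chac1* and 0.15 and 0.23 for *Ddit3*, in DMSO and GSK-J4 respectively. For *Atf4* and *Sesn2* they lay between 0.01 and 0.12. Over the tested members the median AA ratio was 0.15 in DMSO and 0.12 in GSK-J4, against medians over all genes of -0.05 and -0.02. Apart from *Trib3* in DMSO, every value lay within the central 95% of all genes tested.

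The log2 ratio for GSK-J4 with AA minus that without AA ranged from -0.44 for *Trib3* and *Atf3* to 0.09 for *Ddit3*. It was -0.21 for *Chac1*, -0.16 for *Adm2*, 0.05 for *Nupr1*, 0.01 for *Ddit4*, 0.02 for *Sesn2* and 0.08 for *Atf4*. Among all genes tested in both comparisons, the central 95% of this difference ran from -0.68 to 0.63. No difference of the 9 genes fell outside that range, and none could be tested without replicates.

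**Figure D4:**
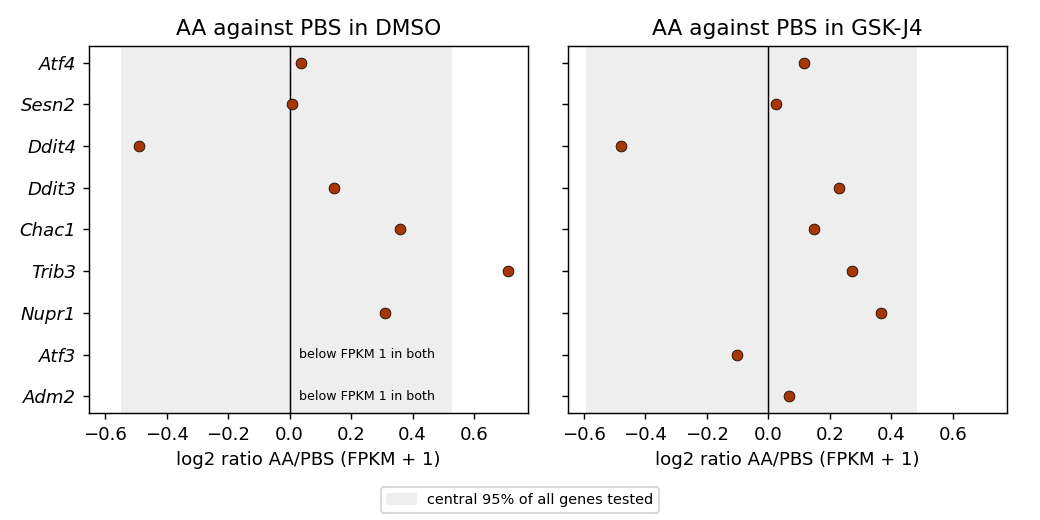
Log2 ratio of AA to PBS for the 9 genes in DMSO (left) and in GSK-J4 (right), 1 point per gene, with the central 95% of all genes tested in grey. *Trib3* lies outside the grey range in DMSO at 0.71, and *Ddit4* lies near its lower edge in both panels at -0.49 and -0.48.

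Of the 8 listed genes upstream of ATF4, 6 had a value, and none of these changed 2-fold. With GSK-J4, 4.96% of all genes tested rose and 3.5% fell without AA, and 4.13% rose and 3.38% fell with AA. None of 6 is near those shares. The PERK kinase gene *Eif2ak3* was in DMSO at 9.33 FPKM with PBS and 7.76 with AA, and in GSK-J4 at 8.88 and 10.4, and the GCN2 kinase gene *Eif2ak4* stayed between 7.16 and 7.32 FPKM. *Ppp1r15a*, which encodes GADD34, the stress-induced subunit that directs dephosphorylation of eIF2α, had log2 ratios of 0.41 and 0.48 for GSK-J4 without and with AA. *Ppp1r15b*, its constitutive counterpart, had -0.13 and 0.07. *Eif2s1*, which encodes eIF2α, had -0.93 and -0.77, and *Eif2b5* -0.68 and -0.65. Genes with a mean FPKM from 10 to 100 had medians of -0.35 and -0.31. Among these *Eif2s1* ranked at percentile 5.98 and 10.6. Phosphorylation of eIF2α was not measured.

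Among bZIP partners of ATF4, CHOP and ATF3, 5 of the 12 listed genes had a value, and 3 of them rose in both comparisons. Among all genes tested, 4.96% rose without AA and 4.13% with AA. *Fosl1* and *Fos* were below an FPKM of 1 in both DMSO libraries. They entered the comparisons only through their GSK-J4 values, so the count of 3 is a description only. *Fosl1* was at 0.401 and 5.39 FPKM without AA, *Jun* at 2.47 and 7.63, and *Fos* at 0.702 and 3.12. Their log2 ratios were 2.19, 1.31 and 1.27 without AA and 1.45, 1.08 and 1.22 with AA. The C/EBP partner gene *Cebpg* had ratios of 0.39 and 0.64, and *Nfe2l2*, which encodes NRF2, had -0.45 and -0.29. 

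Relatives of the 9 genes gave a mixed picture. *Ddit4l*, the paralog of *Ddit4*, rose in both comparisons, from 5.12 to 26.2 FPKM and from 4.76 to 22.7, with ratios of 2.15 and 2.04. *Jdp2*, which is close to *Atf3*, rose from 4.62 to 17.8 FPKM and from 8.15 to 21.9, ratios of 1.75 and 1.32. *Sesn1* had ratios of 0.18 and 0.02 and *Sesn3* of 0.41 and 0.51, so neither passed 2-fold while *Sesn2* did. *Chac2* had 0.22 and 0.08. *Trib1* was lower with GSK-J4, at 1.62 and 0.586 FPKM without AA and 1.61 and 0.549 with AA (log2 ratios of -0.72 and -0.75), opposite in sign to *Trib3*. *Adm* was at or below an FPKM of 1.01 in all libraries.

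Other known targets of ATF4 or CHOP were grouped in a pair of lists. Of the 31 listed amino acid synthesis, uptake and tRNA charging genes, 28 were tested in each comparison, 6 rose and none fell, with medians of 0.38 without and with AA. The share of all genes tested that rose was 4.96% without AA and 4.13% with AA. The glycine transporter gene *Slc6a9* had the largest mean ratio (1.88 and 2.19), followed by the neutral amino acid transporter gene *Slc1a4* (1.38 and 1.43) and *Cth*, which encodes cystathionine γ-lyase (1.17 and 1.45). Of 27 other ATF4 or CHOP targets, 22 were tested. Without AA 6 rose, with AA 5 rose, none fell, and the medians were 0.65 and 0.74. Both counts include *Vldlr*, at 0.195 FPKM with PBS and 0.256 with AA in DMSO, and at 1.69 and 1.67 in GSK-J4. It entered the comparisons only through its GSK-J4 values, so these counts are a description only. *Stc2*, which encodes stanniocalcin 2, had ratios of 2.05 in both comparisons. *Jdp2* followed, and *Vegfa* had 1.53 in both. *Gadd45b* was lower, with ratios of -0.65 and -0.84. CARE letters were in 4 of the 18 windows of this second list (22.2%), those of *Herpud1*, *Vldlr*, *Pck2* and *Jdp2*. This list too was chosen as known targets, so its share is not independent of that choice. For the amino acid list, only 75.0% of the tested genes had a window, so its share is not given.

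The ATF6 and XBP1 arms of the unfolded protein response raise ER chaperones and folding enzymes. Of 23 listed genes, 21 were tested without AA and 22 with AA, and none changed 2-fold in either direction. Of all genes tested, 4.96% rose and 3.5% fell without AA, and 4.13% rose and 3.38% fell with AA. A count of none in so short a list is not far from those shares. The medians of the list were -0.24 and -0.16, beside -0.17 and -0.16 for all genes. They turned positive (0.14 and 0.17) when all libraries were given the same total, as did that of all genes (0.16 and 0.14). *Hspa5*, which encodes the ER chaperone BiP, was in DMSO at 249 FPKM with PBS and 208 with AA, and in GSK-J4 at 132 and 135. Its log2 ratios were -0.91 and -0.62, those of *Hsp90b1* -0.67 and -0.53 and those of *Sec61b* -0.49 and -0.63. Among the 482 highly expressed genes, *Hspa5* ranked at percentile 18.7 and 42.3 and *Hsp90b1* at 41.7 and 52.7. The ER stress element was present in 9 of the 19 windows of this list (47.4%), those of *Hspa5* and *Hsp90b1* included, and in none of the windows of the 9 genes. Only 0.207% of the tested genes with a window hold it, so none of 9 is near that share. The list was chosen as genes of these arms, so its share is not independent of that choice.

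Genes of mTORC1 and its regulators were also within 2-fold, for all 18 of the 21 listed that were tested. Here too, 4.96% of all genes tested rose and 3.5% fell without AA, and 4.13% rose and 3.38% fell with AA. None of 18 is not far from those shares. The medians of the mTORC1 list were -0.30 and -0.16, turning to 0.04 and 0.13 under the same total. The GATOR2 subunit gene *Seh1l* had ratios of -0.76 and -0.57, *Tbc1d7* -0.49 and -0.49, and *Rraga* -0.47 and -0.49. Several of the 9 genes, among them *Sesn2*, *Ddit4* and *Atf3*, are also known p53 targets. Of 18 listed p53 targets, 16 were tested, 7 rose without AA, 8 rose with AA and none fell. Over all genes tested, 4.96% rose without AA and 4.13% with AA. The medians of the p53 list were 0.95 and 0.96. For the lists of ATF4 or CHOP targets the medians were 0.38 and 0.38, and 0.65 and 0.74. The lists are not separate: *Bbc3* and *Tnfrsf10b* are on the p53 list and among the other ATF4 or CHOP targets. *Trp53* itself is on the p53 list. The part of p53 in the rise of the 9 genes was not tested. *Perp* had ratios of 2.15 and 2.12, *Plk2* 2.03 and 2.22, and *Btg2* 2.06 and 1.94, while *Sesn1* stayed within 2-fold and *Trp53* itself had -0.89 and -0.72. Among the 482 highly expressed genes, whose medians were -0.60 and -0.56, *Trp53* ranked at percentile 20.1 and 32.8.

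**Figure D5:**
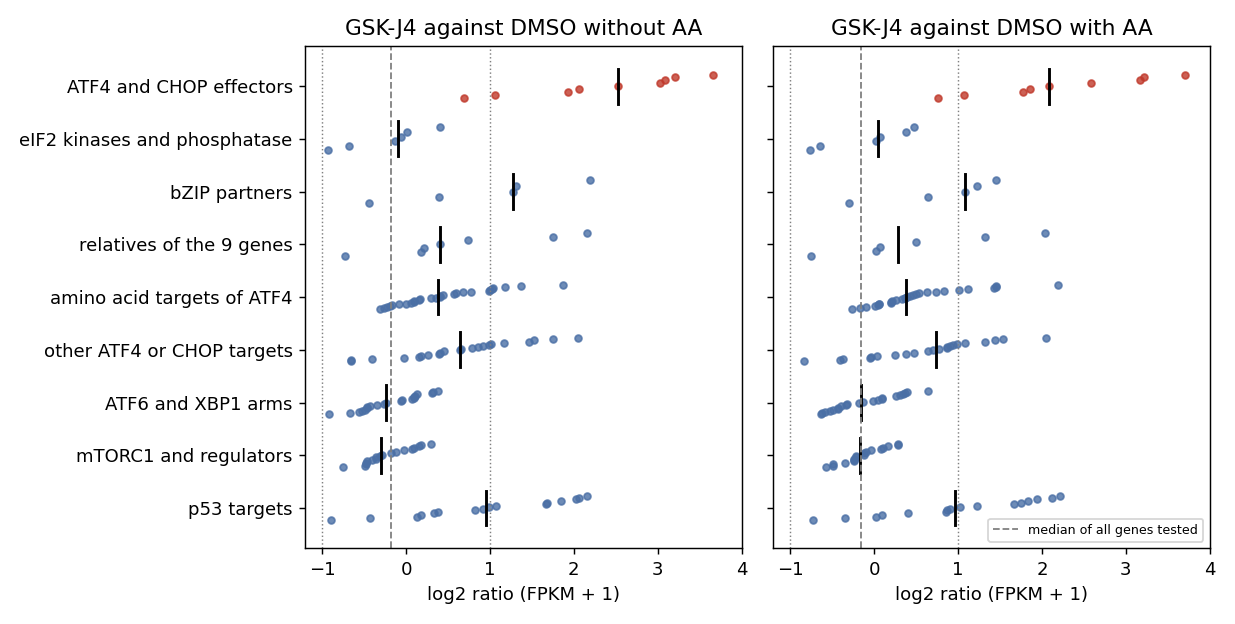
Log2 ratio of GSK-J4 to DMSO for each tested gene of the 9 gene set (red) and of 8 related lists (blue), without AA on the left and with AA on the right. Black bars are medians, the dashed line is the median of all genes tested and the dotted lines mark 2-fold. The red median lies at 2.52 and 2.08, the ATF6 and XBP1 list at -0.24 and -0.16.

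The genes whose pattern over the 4 libraries was most like the average of the 9 were found by Euclidean distance between log2(FPKM + 1) values centred on their own mean, among the 6561 genes that reached 5 FPKM in some library. The nearest were *Mt1*, *Abcb1b*, *Hyal1*, *Slc4a11*, *Ano3*, *Anxa8*, *Mt2* and *Scn3b*, at distances from 0.159 to 0.330. The 9 genes themselves lay at 0.371 (*Chac1*) to 1.58 (*Atf4*) from their own average. The metallothionein gene *Mt1* was in DMSO at 228 FPKM with PBS and 279 with AA, and in GSK-J4 at 1099 and 1309. *Mt2* was at 365 and 462 in DMSO and at 1528 and 1877 in GSK-J4. *Abcb1b*, which encodes a drug efflux pump, was at 8.35 and 7.96 FPKM in DMSO and at 45.9 and 42.2 in GSK-J4. None of these 8 genes is on the lists above.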

How the data were processed

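Total RNA of LF2 ESCs was sequenced, with 1 library for each of 4 conditions taken from the labels. The authors removed duplicates from single-end reads, aligned them with TopHat2 to mm10 per the labels and used Cufflinks2. They deposited 2 tables of FPKM per coding sequence group, each with a DMSO and a GSK-J4 library. The FPKM columns are headed as log10 but hold linear values. Columns with the authors' fold changes, test statistics, p-values and q-values were not used. How the libraries were scaled, tool versions and the annotation are not given in the sources used here. Duplicate removal can lower high values.

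FPKM was summed over the groups of a gene, and 157 genes with a failed estimate were left out, leaving 9779. Each of the 9 genes has 1 group and no failed estimate. A pseudocount of 1, a minimum FPKM of 1 in either library and a 2-fold threshold were used. With 1 library per condition no test was run.

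Members, gene lists and alternatives were chosen with earlier results of these data known. Named genes are the 9 members, the genes upstream of ATF4, its partners and the relatives, the 3 genes of each other list with the largest absolute mean GSK-J4 ratio, and the 8 nearest by pattern. *Mars*, *Nrsn2*, *Gadd45b*, *Trp53*, *Bbc3* and *Tnfrsf10b*, and the genes named for holding a promoter element, were named after their values were seen. Promoter windows are from RefSeq on GRCm38.p6 (mm10), matched by symbol or by a synonym held by a single gene. The other annotation is GENCODE M21. Python 3.11.15, numpy 2.4.6, pandas 2.3.3 and matplotlib 3.10.9 were used.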

Additional observations from a re-analysis of the deposited data

Results flagged for a closer look

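*Atf3* was the only one of the 9 genes that AA moved in opposite directions in the libraries with DMSO and with GSK-J4. Its log2 ratio of AA to PBS was 0.34 in DMSO, where both FPKM values were below 1, and -0.10 in GSK-J4. There is 1 library per condition, so the difference was not tested.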

How the results depend on the processing

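Each of the 9 genes kept a positive GSK-J4 ratio under the 9 alternatives that give ratios (8 for *Adm2*). This is a description and not a check. A changed pseudocount or filter cannot alter the sign of a ratio, and each gene has 1 group and no failed estimate. Only the rescalings could have altered a sign, and each of them raised the GSK-J4 ratios of the 9 genes. At a 4-fold threshold 6 of the 9 genes rose without AA and 5 with AA (8 and 8 at 2-fold), and a 1.5-fold threshold raised that for AA in DMSO from 0 to 1 (*Trib3*). When all libraries were given the same total, the median of all genes was 0.16 without AA and 0.14 with AA in place of -0.17 and -0.16, and the change took *Atf4* past 2-fold, to 1.07 and 1.10. Over all genes, 801 were then higher and 95 lower without AA (456 and 322 unscaled), and 623 and 99 with AA (377 and 309). A pseudocount of 5 gave 6 genes past 2-fold without AA and 7 with AA, and lowered *Atf3* to 1.59 and 1.41 and *Adm2* to 0.78 and 0.76. A pseudocount of 0.1 raised *Atf3* to 4.17 without AA and 3.36 with AA. Over all genes these pseudocounts gave 112 and 746 higher genes without AA and 99 and 662 with AA. A minimum FPKM of 5 left out *Adm2* and gave 7 genes in each comparison. No paired analysis was possible because each condition has 1 library and the labels give no replicate numbers. An additive fit of GSK-J4 and AA over the 4 libraries, with 1 residual degree of freedom that would take the interaction of both compounds as error, was not run. Leaving out a library would remove a condition. The unknown depth limits the values below an FPKM of 1, those of *Atf3* and *Adm2* in DMSO.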
